A study of Arabidopsis thaliana with 8 samples.

Results

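Cytochrome P450 genes were taken as the genes in any of the 5 comparison tables whose short description contains the words cytochrome P450, less 13 genes of the flavonoid, glucosinolate, camalexin, iron-response and oxylipin pathways that were left out by identifier. This gave 90 genes of the 7948 in any table, and of the 7195 that carry a short description and could have matched. Of the 13 left-out genes, 12 match the description. The tables come from poly-A RNA sequenced from entire *Arabidopsis thaliana* seedlings of the Col-0 ecotype, 7 days old and raised under constant white light on B5 medium, with 2 libraries per genotype. The genotypes were *nf-yc triple hy5*, its parents *nf-yc triple* and *hy5*, and unmutated Col-0. The *nf-yc triple* line (nf-yc3 c4 c9 in the labels) combines the alleles *nf-yc3-1*, *nf-yc4-1* and *nf-yc9-1*. Per the study, the first and second of these alleles are strong knockdowns and *nf-yc9-1* keeps part of its normal expression. The *hy5* line lost HY5, a bZIP transcription factor, and *nf-yc triple hy5*, called the quadruple mutant below, has every one of these mutations. The labels name no treatment, and genotype is the only difference they give between the lines.

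P450 enzymes are heme monooxygenases, most of them anchored in the endoplasmic reticulum, that insert an oxygen atom into small molecules with electrons passed on by an NADPH-dependent reductase or cytochrome b5. In plants they hydroxylate hormones, sterols, triterpenes, fatty acids, carotenoids and phenolics, and many of their genes lie in tandem arrays of recent duplicates. HY5 promotes light-grown development and binds ACGT-containing elements such as the G-box CACGTG, and NF-YC proteins form trimers with NF-YA and NF-YB subunits that bind CCAAT.

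The log2 fold changes below are those of the authors' deposited tables, which list only genes at an edgeR adjusted p under 0.05, and each is the first-named genotype over the second. A gene is said to rise or fall, and is counted as called, where it was listed and changed at least 1.5-fold (0.58 on the log2 scale). No per-library value was at hand, which leaves depth, SD and n per gene unstated, and a gene absent from a table has no value rather than an unchanged one. The series' text speaks of biological replicates without saying whether these were separate sowings, and the adjusted p-values measure only the spread between the libraries. The RNA is of whole seedlings, where more cells of a type and more RNA per cell cannot be told apart.

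More P450 genes were called in *hy5* than in *nf-yc triple*, and most in the quadruple mutant. In *hy5* against Col-0, 26 of the 90 P450 genes rose and 16 fell, while 18 were listed under 1.5-fold and 30 were not listed. These counts are 28.9% and 17.8% of the P450 genes, against 16.9% higher and 11.6% lower among all 7195 described genes. In *nf-yc triple* against Col-0, 10 rose and 12 fell (11.1% and 13.3%), against 8.26% higher and 6.31% lower among described genes. Against Col-0, 22 rose and 26 fell in the quadruple mutant (24.4% and 28.9%), against 18.2% and 16.6%. Compared with *nf-yc triple*, 19 rose and 13 fell in the quadruple mutant (21.1% and 14.4%), against 13.1% and 11.3%. Compared with *hy5*, 2 rose and 5 fell in it (2.22% and 5.56%), against 1.38% and 2.97%. The share of P450 genes called was thus above the share of described genes in each of the 10 counts, a description that carries no test. The counts depend on the fold threshold, and at 2-fold they were 13 higher and 5 lower in *hy5*, and 13 and 10 in the quadruple mutant, against Col-0. The shares of described genes were not recomputed at 2-fold, so whether the P450 shares stay above them there is not known.

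**Figure D1:**
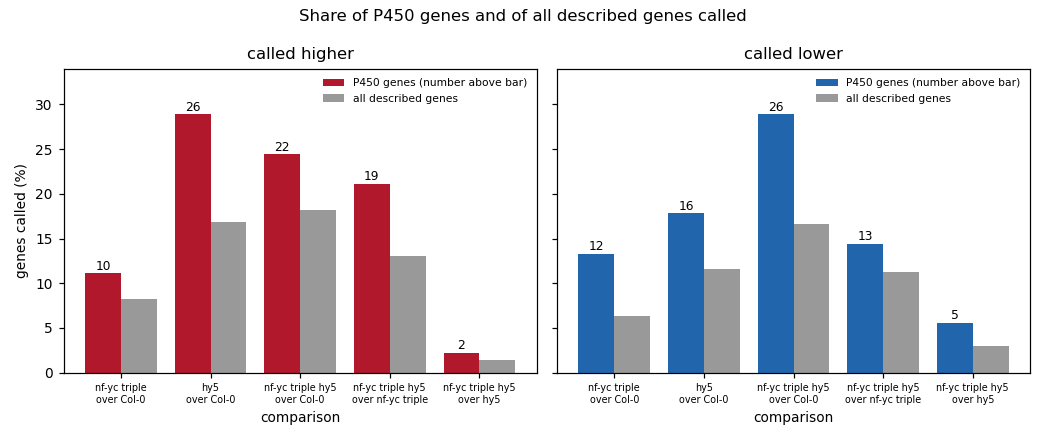
Percentage of the 90 P450 genes (coloured bars, number of genes above each) and of the 7195 described genes (grey bars) called higher or lower in each of the 5 comparisons. The coloured bar stands above the grey bar in every comparison, with the widest gaps for genes higher in *hy5* against Col-0 (28.9% against 16.9%) and lower in the quadruple mutant against Col-0 (28.9% against 16.6%).

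Direction was mixed in every comparison. The median log2 fold change of the listed P450 genes was 0.47 in *hy5* against Col-0, beside 0.27 for all listed genes with a description. It was -0.31 in *nf-yc triple* and -0.38 in the quadruple mutant against Col-0, beside -0.24 and -0.22. Against its parents, the quadruple mutant had medians of 0.02 over *nf-yc triple* and -0.46 over *hy5*, beside 0.24 and -0.36. In all, 65 of the 90 genes were called at least once, 1 of them in all 5 comparisons, and 25 were listed but never reached 1.5-fold. The same counts were not made over all described genes, so these have no background beside them.

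**Figure D2:**
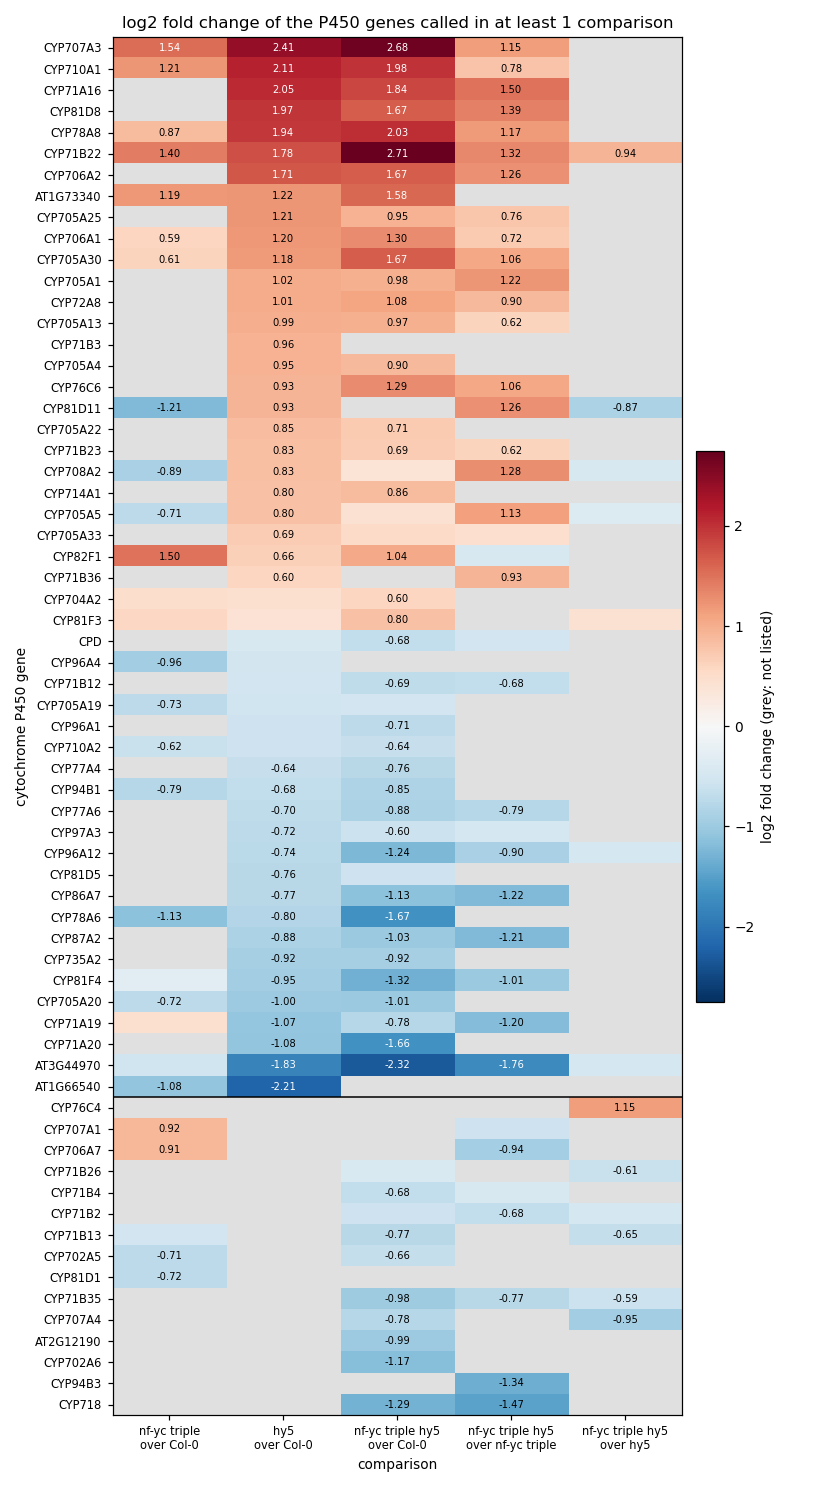
Log2 fold change (colour) of the 65 P450 genes called in at least 1 comparison (rows) over the 5 comparisons (columns). Printed numbers mark calls, pale cells without a number were listed under 1.5-fold, and grey cells were not listed; genes above the line are ordered by their value in *hy5* against Col-0, with *CYP707A3* at 2.41 on top and AT1G66540 at -2.21 at the bottom, and genes below the line had no value there.

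The genes with the most extreme values are shown first with the sequence upstream of their annotated starts. *CYP71B22* (2.71) and *CYP707A3* (2.68) had the largest rises of the 90 genes in the quadruple mutant against Col-0, and AT3G44970 (-2.32) had the largest fall. The 250 bases before each start were read from the RefSeq genome of assembly TAIR10.1, whose gene starts need not be those of the authors' TAIR10 gene models, and none of the windows printed overlaps another annotated gene. Capitals mark CACGTG, and CCAAT or its reverse complement ATTGG. The windows are chr5:18371022-18371271 (minus strand) for *CYP707A3*, chr3:9588999-9589248 (plus strand) for *CYP71B22* and chr3:16432036-16432285 (plus strand) for AT3G44970, each printed 5′ to 3′ in the direction of the gene.
CYP707A3: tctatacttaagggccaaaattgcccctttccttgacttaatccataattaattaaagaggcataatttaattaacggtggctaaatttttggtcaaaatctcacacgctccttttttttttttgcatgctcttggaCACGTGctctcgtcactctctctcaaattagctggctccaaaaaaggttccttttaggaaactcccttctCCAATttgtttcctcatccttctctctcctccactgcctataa
CYP71B22: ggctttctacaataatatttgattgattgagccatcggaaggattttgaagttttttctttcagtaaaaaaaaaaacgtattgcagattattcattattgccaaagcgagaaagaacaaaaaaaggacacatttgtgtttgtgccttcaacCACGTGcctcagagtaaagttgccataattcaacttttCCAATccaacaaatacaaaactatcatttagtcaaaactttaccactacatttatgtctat
AT3G44970: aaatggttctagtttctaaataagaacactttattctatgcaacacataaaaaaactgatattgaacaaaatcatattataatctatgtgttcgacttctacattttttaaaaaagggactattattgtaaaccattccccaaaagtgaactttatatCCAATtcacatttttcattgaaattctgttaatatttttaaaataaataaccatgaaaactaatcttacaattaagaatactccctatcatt

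*CYP707A3* and *CYP71B22* each hold CACGTG and CCAAT in this window, while AT3G44970 holds CCAAT alone. CACGTG was found in 7 of the 90 P450 windows (7.78%), beside 8.03% of the 7088 described genes in any table with a full window and 6.49% of all 27443 protein-coding genes with one. The shorter ACGTG, which every CACGTG contains, was found on either strand in 23 P450 windows (25.6%), beside 26.8% of the described genes and 22.9% of all genes. CCAAT on either strand was found in 39 P450 windows (43.3%), beside 46.1% of the described genes and 46% of all genes. Among the P450 genes that rose in *hy5* against Col-0, 4 of 26 windows held CACGTG (15.4%), beside 6.26% of the 1183 other described genes that rose there, while ACGTG was in 7 (26.9%), beside 28.6%. Among those that fell, CACGTG was in 0 of 16, beside 11.6% of 787 other genes, and ACGTG in 2 (12.5%), beside 33.2%. A match in these letters is a description of the window and not a binding site.

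The abscisic acid hydroxylase gene *CYP707A3*, whose enzyme starts abscisic acid breakdown, rose 5.31-fold in *hy5* against Col-0 (log2 2.41, adjusted p = 1.78e-52) and 6.42-fold in the quadruple mutant against Col-0 (2.68, adjusted p = 4.46e-57). It rose 2.9-fold in *nf-yc triple* against Col-0 (1.54), and was higher again in the quadruple mutant than in *nf-yc triple* (1.15). *CYP707A1* rose in *nf-yc triple* against Col-0 (0.92, adjusted p = 8.52e-05) and stood at -0.57 in the quadruple mutant against *nf-yc triple*, just under 1.5-fold. *CYP707A4* fell in the quadruple mutant against both Col-0 (-0.78) and *hy5* (-0.95, adjusted p = 0.00586). The remaining gene of this list of 4, *CYP707A2*, was in no table.

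*CYP71B22*, a member of the large CYP71B subfamily, was the only P450 gene called in all 5 comparisons, always higher. It rose in *nf-yc triple* (1.40), *hy5* (1.78) and the quadruple mutant (2.71, adjusted p = 1.13e-35) against Col-0. In the quadruple mutant it was also higher than in *nf-yc triple* (1.32) and *hy5* (0.94, adjusted p = 4.19e-07). AT3G44970 was its counterpart on the lower side. It fell in *hy5* (-1.83, adjusted p = 4.8e-58) and the quadruple mutant (-2.32, adjusted p = 8.91e-78) against Col-0 and in the quadruple mutant against *nf-yc triple* (-1.76). Its values of -0.55 for *nf-yc triple* over Col-0 and -0.48 for the quadruple mutant over *hy5* were under 1.5-fold.

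The effect of losing HY5 can be read in 2 backgrounds that share no library, as *hy5* against Col-0 and as the quadruple mutant against *nf-yc triple*. Of the P450 genes, 35 were listed in both and 34 had the same sign. All 26 genes called in both kept their direction. They make up 61.9% of the 42 called in *hy5* and 81.2% of the 32 called in the quadruple mutant against *nf-yc triple*. Among all described genes, 1043 were called in both. In *hy5* against Col-0, 1216 described genes rose and 834 fell, and 946 rose and 813 fell in the quadruple mutant against *nf-yc triple*. Over all described genes, 2449 of 2497 listed in both had the same sign (98.1%), so in sign the P450 genes followed the general pattern. The size of the change was smaller in the *nf-yc triple* background for 20 of the 35 genes and larger for 15, with a median difference in size of -0.04 on the log2 scale.

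**Figure D3:**
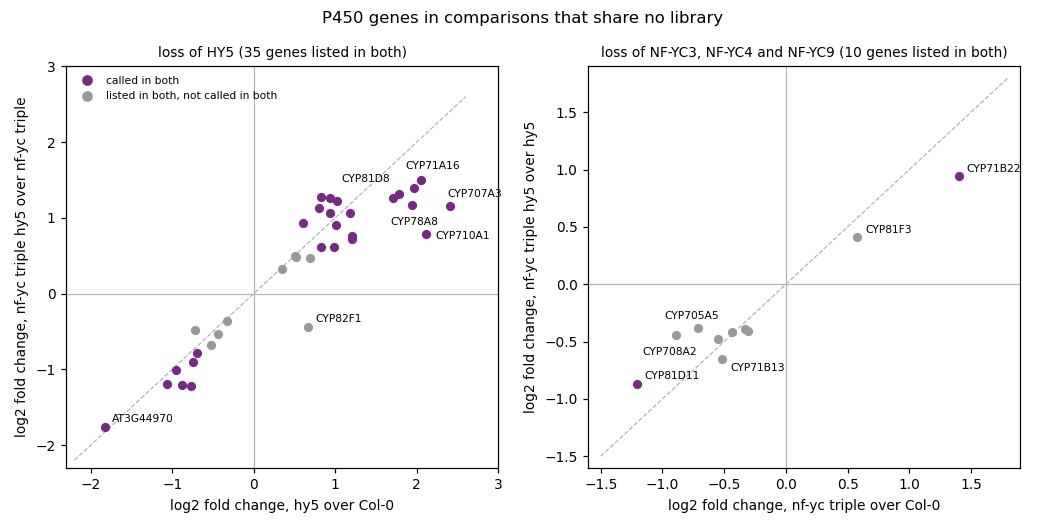
Log2 fold changes of P450 genes in comparisons that share no library, for loss of HY5 (left, 35 genes) and loss of NF-YC3, NF-YC4 and NF-YC9 (right, 10 genes), with the Col-0 background on the x axis and the mutant background on the y axis. Purple points were called in both, the dashed line marks equal values, and *CYP82F1* (0.66 and -0.44) is the only point whose 2 values differ in sign.

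Most of the strong responders to HY5 loss rose in both backgrounds. *CYP71A16* rose by 2.05 in *hy5* against Col-0 and by 1.5 in the quadruple mutant against *nf-yc triple*. *CYP81D8*, a gene induced by xenobiotics and stress, rose by 1.97 and 1.39 in these comparisons, and *CYP78A8*, a relative of the organ growth gene *KLU*, by 1.94 and 1.17. *CYP706A2* rose by 1.71 and 1.26, and its neighbour *CYP706A1* by 1.20 and 0.72. Their coding sequences are 97.3% identical, so reads of the weakly expressed *CYP706A2* (mean log2 CPM 1.57) may be shared with *CYP706A1* (7.29), and its values are uncertain. *CYP76C6*, *CYP72A8* and *CYP71B23* also rose, at 0.93, 1.01 and 0.83 in *hy5* and 1.06, 0.90 and 0.62 in the quadruple mutant against *nf-yc triple*.

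Fewer genes fell in both backgrounds. Beside AT3G44970, *CYP71A19* fell in *hy5* against Col-0 (-1.07) and in the quadruple mutant against *nf-yc triple* (-1.20), and *CYP87A2* likewise (-0.88 and -1.21). *CYP71A19* was listed at 0.43 in *nf-yc triple* against Col-0, the opposite sign. Its neighbour *CYP71A20* fell in *hy5* (-1.08) and the quadruple mutant (-1.66) against Col-0. *CYP718* fell in the quadruple mutant against Col-0 (-1.29) and against *nf-yc triple* (-1.47) and was not listed in *hy5* against Col-0.

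*CYP82F1*, whose function is not characterised in the sources used here, was the exception among the 35. It was higher in *hy5* than in Col-0 (0.66, adjusted p = 0.000719) and stood at -0.44 in the quadruple mutant against *nf-yc triple* (adjusted p = 0.0381). It rose most in *nf-yc triple* against Col-0 (1.5, adjusted p = 2.47e-16), and reached 1.04 in the quadruple mutant against Col-0. The lower of its HY5 values did not reach 1.5-fold.

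Loss of the NF-YCs can likewise be read as *nf-yc triple* against Col-0 and as the quadruple mutant against *hy5*, again with no shared library. Only 10 P450 genes were listed in both, and all 10 had the same sign, beside 451 of 489 described genes (92.2%). Called in both were *CYP71B22* (1.40 and 0.94) and *CYP81D11* (-1.21 and -0.87). They are 9.09% of the 22 genes called in *nf-yc triple* and 28.6% of the 7 called in the quadruple mutant against *hy5*. Among all described genes, 137 were called in both. In *nf-yc triple* against Col-0, 594 described genes rose and 454 fell, and 99 rose and 214 fell in the quadruple mutant against *hy5*. The thalianol pathway genes *CYP708A2* (-0.89 and -0.44) and *CYP705A5* (-0.71 and -0.38) were among the other P450 genes listed in both. The change was smaller in the *hy5* background for 7 of the 10 genes, and the difference in size was not tested.

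In all, 3 P450 genes were called in the quadruple mutant against both of its parents. This count was not made over all described genes, so it has no background beside it. *CYP71B22* was higher than in each parent, as given above. *CYP71B35* was lower than in *nf-yc triple* (-0.77) and in *hy5* (-0.59), and fell in the quadruple mutant against Col-0 (-0.98), with no listed difference between either parent and Col-0. *CYP81D11*, a gene induced by jasmonate-related signals and xenobiotics, was higher than in *nf-yc triple* (1.26, adjusted p = 5.15e-16) and lower than in *hy5* (-0.87, adjusted p = 1.38e-06). It fell in *nf-yc triple* against Col-0 (-1.21, adjusted p = 2.76e-21) and rose in *hy5* against Col-0 (0.93, adjusted p = 1.62e-10). It was not listed in the quadruple mutant against Col-0, where the sums of the other values give 0.05 by way of *nf-yc triple* and 0.06 by way of *hy5*.

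Such sums are close to the listed values where these exist. Over the 12 P450 genes with all 3 values, the value in the quadruple mutant against Col-0 differed from the sum by way of *nf-yc triple* by at most 0.014 on the log2 scale. In *nf-yc triple* against Col-0 the signed fold column of the deposited table goes against the log2 column for 7 of the P450 genes, among them the called genes *CYP705A30* (log2 0.61) and *CYP706A1* (log2 0.59). The difference of the other 2 comparisons gave 0.60 for *CYP705A30*, 0.58 for *CYP706A1* and 0.42 for *CYP71A19*, each with the sign of the log2 column. The remaining genes in conflict, *CYP71B7*, *CYP704A2*, *CYP72A14* and *CYP81F3*, lacked the values for this check. The sign was that of the log2 column in 12 of 12 genes with values, in conflict or not, so the log2 column was used.

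Among the brassinosteroid genes, the synthesis gene *CPD* fell in the quadruple mutant against Col-0 (-0.68, adjusted p = 3.29e-12) and was listed at -0.44 in *hy5* against Col-0. The synthesis gene *ROT3* (0.53 in *hy5*) and the inactivating gene *CYP72C1* (0.51 in *hy5*, 0.52 in the quadruple mutant) stayed under 1.5-fold against Col-0. On the whole brassinosteroid list of 8 P450 genes, 1 rose and 1 fell in *hy5* against Col-0, the synthesis genes *CYP85A1* (1.02) and *CYP85A2* (-0.76), whose short descriptions lack the words cytochrome P450. In the quadruple mutant 0 rose and 2 fell against Col-0, *CPD* and *CYP85A2* (-0.67), and 0 rose and 1 fell against *nf-yc triple*, again *CYP85A2* (-0.62). *CYP714A1*, which inactivates gibberellins, rose in *hy5* (0.80) and the quadruple mutant (0.86) against Col-0, as the single gene called on a gibberellin list of 6. Of the brassinosteroid list 5 genes were in any table, and of the gibberellin list 2. Among described genes in any table, 16.9% rose and 11.6% fell in *hy5* against Col-0. In the quadruple mutant, 18.2% of them rose and 16.6% fell against Col-0, and 11.3% fell against *nf-yc triple*. These few calls do not set the lists apart from those shares.

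*CYP735A2*, which makes trans-zeatin cytokinins, fell in both *hy5* (-0.92) and the quadruple mutant (-0.92) against Col-0. The jasmonoyl-isoleucine hydroxylase gene *CYP94B1* fell in all 3 mutants against Col-0, with -0.79 in *nf-yc triple*, -0.68 in *hy5* and -0.85 in the quadruple mutant. *CYP94B3*, with the same activity, fell in the quadruple mutant against *nf-yc triple* alone (-1.34, adjusted p = 0.0119) and had no listed value elsewhere. Its mean log2 CPM there was 0.80, the lowest of the P450 genes listed in that comparison. The strigolactone gene *CYP711A1* (*MAX1*) was listed at -0.30 in *nf-yc triple* and -0.41 in the quadruple mutant against Col-0. These mutants share the Col-0 libraries, so their values are not independent of each other.

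The sterol desaturase genes *CYP710A1* and *CYP710A2*, which make stigmasterol and related sterols, are tandem neighbours that moved in opposite directions. *CYP710A1* rose in *nf-yc triple* (1.21), *hy5* (2.11, adjusted p = 4.51e-20) and the quadruple mutant (1.98) against Col-0, and in the quadruple mutant against *nf-yc triple* (0.78). *CYP710A2* fell in *nf-yc triple* (-0.62, adjusted p = 1.82e-06) and the quadruple mutant (-0.64, adjusted p = 3.51e-07) and stood at -0.58 in *hy5* against Col-0. They lie 1816 bases apart on the minus strand of chromosome 2 and their coding sequences are 82.7% identical. The other 3 genes of the sterol list were in no table. The windows of *CYP710A1* (chr2:14541618-14541867) and *CYP710A2* (chr2:14537557-14537806) are shown because the pair diverged.
CYP710A1: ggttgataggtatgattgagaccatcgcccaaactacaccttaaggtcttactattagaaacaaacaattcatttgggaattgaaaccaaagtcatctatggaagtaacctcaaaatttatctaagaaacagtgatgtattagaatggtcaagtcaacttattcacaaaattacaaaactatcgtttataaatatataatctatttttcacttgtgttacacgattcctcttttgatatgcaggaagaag
CYP710A2: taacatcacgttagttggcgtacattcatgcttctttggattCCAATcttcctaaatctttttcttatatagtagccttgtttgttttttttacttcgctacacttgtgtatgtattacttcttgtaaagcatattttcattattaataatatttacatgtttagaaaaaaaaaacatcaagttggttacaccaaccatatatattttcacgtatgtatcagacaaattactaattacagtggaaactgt

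The *CYP710A1* window holds neither CACGTG nor CCAAT, and the *CYP710A2* window holds CCAAT.

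Of 7 triterpene P450 genes of specialised metabolism, 4 were in the tables. These 4 rose in *hy5* against Col-0 and in the quadruple mutant against *nf-yc triple*, where their medians were 0.93 and 1.25. In the quadruple mutant against Col-0, 2 of them rose. Among described genes, 16.9%, 13.1% and 18.2% rose in these comparisons. *CYP708A2*, which hydroxylates thalianol, rose by 0.83 and 1.28 in the first and second of these comparisons and fell in *nf-yc triple* against Col-0 (-0.89, adjusted p = 2.23e-09). *CYP705A5*, which acts next in the thalianol pathway, rose by 0.80 and 1.13 there and fell in *nf-yc triple* against Col-0 (-0.71, adjusted p = 1.51e-08). In the quadruple mutant the pair stood at 0.37 and 0.41 against Col-0 and at -0.44 and -0.38 against *hy5*, under 1.5-fold in each case. *CYP71A16* of the marneral pathway (1.84) and *CYP705A1*, which cleaves arabidiol (0.98), rose in the quadruple mutant against Col-0 and had no listed value in *nf-yc triple* against Col-0.

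The cyclases that make the triterpene backbones were read alongside. *THAS1*, the thalianol synthase gene next to *CYP708A2*, fell in *nf-yc triple* against Col-0 (-1.33) and rose in the quadruple mutant against *nf-yc triple* (1.58), with 0.55 in *hy5* against Col-0. The arabidiol synthase gene *PEN1* had -0.68, 1.15 and 0.53 in these comparisons, and the lupeol synthase gene *LUP1* had -0.74, 1.52 and 0.49. The marneral synthase gene *MRN1* fell in the quadruple mutant against *hy5* (-1.07), where *CYP71A16* was not listed. Of the 13 cyclase genes on the list, 5 were in any table. Of these 5, 3 fell and 0 rose in *nf-yc triple* against Col-0, where 6.31% of described genes fell. In the quadruple mutant against *nf-yc triple*, 3 of the 5 rose and 0 fell, and 13.1% of described genes rose. In *hy5* against Col-0, 0 of the 13 were called, with 3 listed under 1.5-fold.

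**Figure D4:**
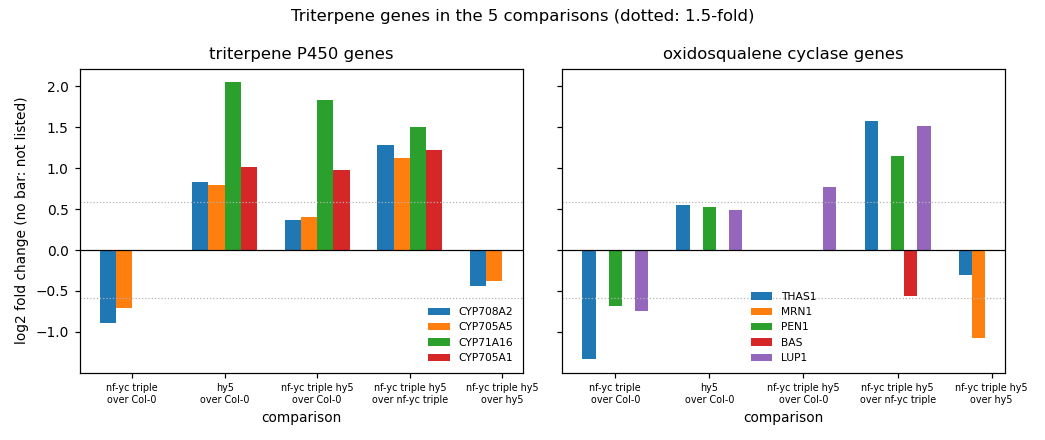
Log2 fold change of the listed triterpene P450 genes (left) and oxidosqualene cyclase genes (right) in the 5 comparisons, with dotted lines at 1.5-fold and no bar where a gene was not listed. *CYP708A2*, *CYP705A5*, *THAS1*, *PEN1* and *LUP1* lie below 0 in *nf-yc triple* over Col-0 and above 0 in *hy5* over Col-0 and in the quadruple mutant over *nf-yc triple*.

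Several of these genes are known from roots, so root tissue markers were set beside them. Of 22 such markers, 13 were in any table, and none of the meristem, quiescent centre and root cap markers was. In *nf-yc triple* against Col-0, where the thalianol genes fell, 8 rose and 0 fell, with a median of 0.88 over the 9 listed. Those that rose included the root hair markers *RHD6*, *COBL9*, *EXPA7* and *EXPA18*. In *hy5* against Col-0, 6 rose and 0 fell, with a median of 0.78 over 8. In the quadruple mutant, 4 rose and 0 fell against Col-0, and 1 rose and 4 fell against *nf-yc triple*, where all 4 triterpene P450 genes rose. Those that fell were the endodermis marker *CASP4* (-0.67) and the root hair markers *RSL4* (-1.09), *EXPA7* (-1.10) and *EXPA18* (-0.89). The stele marker *SKOR* rose (1.73) and *COBL9* was listed at -0.43, so the 6 markers listed there did not all move alike. No root marker was listed in the quadruple mutant against *hy5*. Among described genes in any table, 8.26% rose in *nf-yc triple*, 16.9% in *hy5* and 18.2% in the quadruple mutant against Col-0. In the quadruple mutant against *nf-yc triple*, 13.1% of them rose and 11.3% fell. The part of root tissue in the P450 values was not tested.

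The thalianol P450 genes are shown with their upstream windows, chr5:19434508-19434757 (plus strand) for *CYP705A5* and chr5:19447867-19448116 (minus strand) for *CYP708A2*, because they moved alike in all 5 comparisons. The genes lie 7353 bases apart on opposite strands of chromosome 5.
CYP705A5: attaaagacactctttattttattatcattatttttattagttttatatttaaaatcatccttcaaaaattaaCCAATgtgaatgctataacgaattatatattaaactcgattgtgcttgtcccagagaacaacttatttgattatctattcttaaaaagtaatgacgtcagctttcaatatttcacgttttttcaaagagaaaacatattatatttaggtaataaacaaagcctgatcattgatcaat
CYP708A2: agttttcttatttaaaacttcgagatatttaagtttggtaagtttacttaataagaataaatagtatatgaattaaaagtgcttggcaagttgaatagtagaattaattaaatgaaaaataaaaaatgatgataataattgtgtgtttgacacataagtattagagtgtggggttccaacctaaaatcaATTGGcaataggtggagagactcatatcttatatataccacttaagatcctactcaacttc

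Both windows hold CCAAT, on the gene's own strand in *CYP705A5* and as ATTGG in *CYP708A2*, and neither holds CACGTG.

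Genes of fatty acid and cutin oxidation fell or were not called where HY5 was lost. Of the 5 in the tables, from a list of 11, 3 fell and 0 rose in *hy5* against Col-0. The numbers were the same in the quadruple mutant against Col-0, and 11.6% and 16.6% of described genes fell in these comparisons. *CYP86A7*, a fatty acid omega-hydroxylase gene, fell in *hy5* (-0.77, adjusted p = 0.043) and the quadruple mutant (-1.13) against Col-0 and in the quadruple mutant against *nf-yc triple* (-1.22, adjusted p = 0.00141). *CYP77A6*, a mid-chain hydroxylase gene of cutin synthesis, fell in the same comparisons (-0.70, -0.88 and -0.79), and *CYP77A4* fell in *hy5* (-0.64) and in the quadruple mutant (-0.76) against Col-0. *CYP86A8* stood between -0.39 and -0.33 in these 3 comparisons, and *CYP86A4* was listed only in the quadruple mutant against *nf-yc triple* (-0.42). None of the 11 was listed in *nf-yc triple* against Col-0 or in the quadruple mutant against *hy5*.

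The CYP96A subfamily, which belongs to the same clan as CYP86A, had 3 members, each lower where called. Of these, 1 fell in *nf-yc triple*, 1 in *hy5* and 2 in the quadruple mutant against Col-0. Among described genes, 6.31%, 11.6% and 16.6% fell in these comparisons. In the quadruple mutant against *nf-yc triple*, 1 of the 3 fell, beside 11.3% of described genes. *CYP96A12* fell in *hy5* (-0.74) and the quadruple mutant (-1.24, adjusted p = 5.72e-14) against Col-0 and in the quadruple mutant against *nf-yc triple* (-0.90). *CYP96A1* fell in the quadruple mutant against Col-0 (-0.71) and was listed at -0.58 in *hy5*. *CYP96A4* fell in *nf-yc triple* against Col-0 (-0.96) and was listed at -0.51 in *hy5*.

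In plastid and phenolic pathways, *CYP97A3*, a carotene ring hydroxylase gene of lutein synthesis, fell in *hy5* (-0.72, adjusted p = 5.18e-15) and the quadruple mutant (-0.60) against Col-0 and stood at -0.48 in the quadruple mutant against *nf-yc triple*. On a phenylpropanoid list of 6 P450 genes, 3 were in any table. Of these 3, 0 rose and 2 fell both in *hy5* and in the quadruple mutant against Col-0. Among described genes, 11.6% and 16.6% fell in these comparisons. The 2 that fell on the list were *C4H*, the cinnamate hydroxylase gene (-0.74 and -0.60), and *FAH1*, the ferulate hydroxylase gene (-0.69 and -0.80). Their short descriptions lack the words cytochrome P450. The lignin pathway gene *CYP98A3* was listed only in the quadruple mutant against *nf-yc triple* (-0.38).

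The CYP78A subfamily, some of whose genes promote organ growth, split, although no growth role was listed for *CYP78A8*. *CYP78A8* rose in *nf-yc triple* (0.87), *hy5* (1.94) and the quadruple mutant (2.03, adjusted p = 1.31e-17) against Col-0. *CYP78A6*, which promotes seed growth, fell in *nf-yc triple* (-1.13), *hy5* (-0.80) and the quadruple mutant (-1.67, adjusted p = 5.2e-08). *CYP78A5* (*KLU*) was listed only in the quadruple mutant against Col-0, at -0.47. The other 3 genes of the list were in no table.

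The indole glucosinolate hydroxylase genes *CYP81F3* and *CYP81F4*, neighbours 4329 bases apart, also split. *CYP81F4* fell in *hy5* (-0.95, adjusted p = 4.08e-19) and the quadruple mutant (-1.32, adjusted p = 2.47e-32) against Col-0 and in the quadruple mutant against *nf-yc triple* (-1.01). *CYP81F3* rose in the quadruple mutant against Col-0 (0.80), and its values against Col-0 were under 1.5-fold in *nf-yc triple* (0.58) and *hy5* (0.40). Of the CYP81D genes beside them, *CYP81D8* rose as given above, whereas *CYP81D5* fell in *hy5* (-0.76), and *CYP81D4* was at -0.30 in both *hy5* and the quadruple mutant against Col-0. *CYP81D1*, on another chromosome, fell in *nf-yc triple* against Col-0 (-0.72). *CYP76C1*, which oxidises linalool, was listed between 0.48 and 0.53 in *hy5* and the quadruple mutant against Col-0 and the quadruple mutant against *nf-yc triple*. Its neighbour *CYP76C4*, 217 bases away, was listed only in the quadruple mutant against *hy5*, where it had the largest rise of the P450 genes (1.15, adjusted p = 0.00388).

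Of the larger subfamilies, CYP705A had 11 members. In *hy5* against Col-0, 8 rose and 1 fell, beside 28.9% and 17.8% of all P450 genes and 16.9% and 11.6% of described genes. The CYP705A genes that rose, besides *CYP705A1* and *CYP705A5*, were *CYP705A25* (1.21), *CYP705A30* (1.18), *CYP705A13* (0.99), *CYP705A4* (0.95), *CYP705A22* (0.85) and *CYP705A33* (0.69). *CYP705A20* fell in *nf-yc triple* (-0.72), *hy5* (-1.0) and the quadruple mutant (-1.01) against Col-0. *CYP705A19*, 361 bases from it, fell in *nf-yc triple* (-0.73) and was listed at -0.54 in *hy5* and -0.53 in the quadruple mutant. *CYP705A30* also rose in the quadruple mutant against Col-0 (1.67, adjusted p = 1.37e-14). *CYP705A20* and *CYP705A21* share a few bases at their adjoining ends in the TAIR10.1 annotation.

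CYP71B had 14 members, 10 of them called, and both directions. In *hy5* against Col-0, 4 of the 14 rose and 0 fell, beside 16.9% and 11.6% of described genes. Those that rose were *CYP71B22*, *CYP71B3* (0.96), *CYP71B23* (0.83) and *CYP71B36* (0.60). In the quadruple mutant against Col-0, 2 of the 14 rose and 4 fell, beside 18.2% and 16.6%. Those that fell were *CYP71B35* (-0.98), *CYP71B13* (-0.77), *CYP71B12* (-0.69) and *CYP71B4* (-0.68). *CYP71B13* also fell in the quadruple mutant against *hy5* (-0.65), as did *CYP71B26* (-0.61), and *CYP71B2* fell in the quadruple mutant against *nf-yc triple* (-0.68). *CYP71B36* rose in the quadruple mutant against *nf-yc triple* (0.93), where its neighbour *CYP71B35*, 1539 bases away, fell (-0.77).

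**Figure D5:**
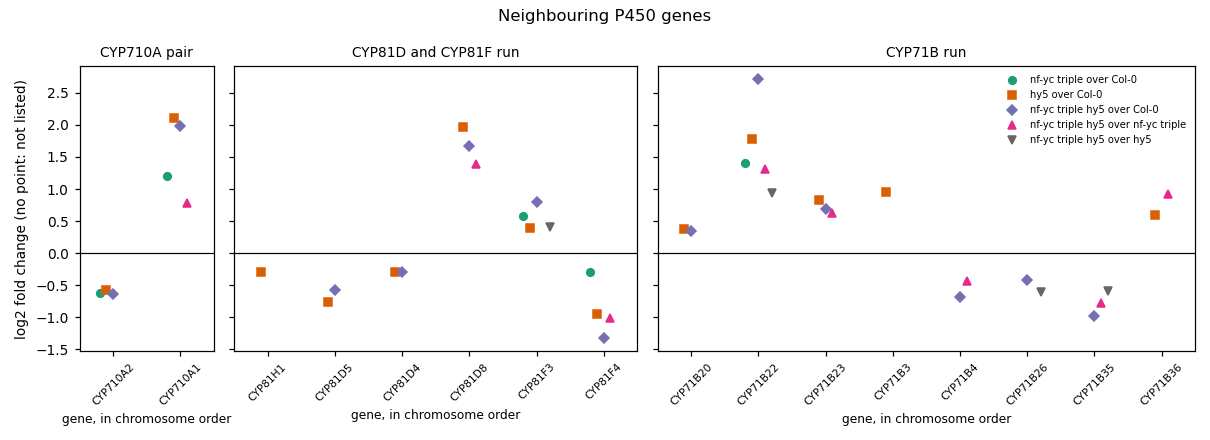
Log2 fold changes of neighbouring P450 genes in chromosome order (x axis; other genes may lie between) for the CYP710A pair, the CYP81D and CYP81F genes and a run of CYP71B genes, with 1 marker shape per comparison and no point where a gene was not listed. *CYP710A2* and *CYP710A1* lie on opposite sides of 0 in all 3 mutants over Col-0, and the CYP71B run has *CYP71B22* at up to 2.71 and *CYP71B35* at -0.98 in the quadruple mutant over Col-0.

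Neighbouring genes moved alike in some arrays and apart in others. Of the P450 genes, 45 lie within 10000 bases of another, in 28 pairs, 25 of them on the same strand. In *hy5* against Col-0, 14 pairs had both genes listed, of which 11 had the same sign and 3 opposite signs. In *nf-yc triple* against Col-0 these numbers were 3 and 3, in the quadruple mutant against Col-0 14 and 4, in the quadruple mutant against *nf-yc triple* 6 and 3, and in the quadruple mutant against *hy5* 2 and 0. Neighbours are often near-duplicates, and 16 of the P450 genes have a coding sequence at least 90% identical to another P450 gene, so part of their reads may be shared. Beside the CYP706A pair, AT2G12190 (-0.99 in the quadruple mutant against Col-0) is 96.6% identical to *CYP89A5*.

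The neighbours *CYP702A5* and *CYP702A6*, with coding sequences 92.0% identical, both fell in the quadruple mutant against Col-0 (-0.66 and -1.17), and *CYP702A5* also fell in *nf-yc triple* against Col-0 (-0.71). *CYP704A2* rose in the quadruple mutant against Col-0 (0.60), and its values against Col-0 stayed under 1.5-fold in *nf-yc triple* (0.48) and *hy5* (0.44).

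*CYP706A7* rose in *nf-yc triple* against Col-0 (0.91) and fell in the quadruple mutant against *nf-yc triple* (-0.94), with a sum of -0.02 between the quadruple mutant and Col-0. AT1G73340 rose in *nf-yc triple* (1.19), *hy5* (1.22) and the quadruple mutant (1.58) against Col-0. AT1G66540 fell in *nf-yc triple* (-1.08, adjusted p = 1.5e-08) and *hy5* (-2.21, adjusted p = 3.17e-24) against Col-0 but was in none of the 3 tables of the quadruple mutant. Whatever its level there, at least 1 of those comparisons would hold a difference about as large as the one called in *nf-yc triple*, so its absence from them is not a sign of an unchanged level.

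The electron partners of P450 enzymes were read as well. Of 11 reductase, cytochrome b5 and P450 scaffold protein genes, 3 were in any table. The 1 call was *CB5-C*, a cytochrome b5 gene, which fell in *nf-yc triple* against Col-0 (-0.60). Among described genes in any table, 6.31% fell there, beside 1 of these 3, too few genes to compare with that share. The reductase gene *ATR2* was listed only in the quadruple mutant against *nf-yc triple* (0.27), and *CB5-B* was listed between -0.52 and -0.43 in *hy5* and the quadruple mutant against Col-0 and in the quadruple mutant against *nf-yc triple*.

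Of the 25 P450 genes never called, values stayed between the thresholds throughout. Among them, *CYP89A9*, which oxidises chlorophyll breakdown products, was listed at 0.51 in *hy5* against Col-0 and at -0.51 in the quadruple mutant against *hy5*. *CYP706A5* was listed at 0.43, 0.34 and 0.39 in the 3 comparisons of the quadruple mutant. The RefSeq annotation of TAIR10.1 names 248 genes as cytochrome P450, of which 104 were in any table, and the other genes were not analysed here.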

How the data were processed

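Poly-A RNA libraries from 8 samples, 2 for each of 4 genotypes, were sequenced as paired ends on an Illumina HiSeq. Per the labels and the study's methods, reads were demultiplexed with CASAVA 1.8.2, trimmed, and aligned by Burrows-Wheeler Aligner to representative TAIR10 gene models, before edgeR tests of genotype pairs. The edgeR version and settings are not given in those sources. The deposited tables hold, for genes at an adjusted p under 0.05, the authors' log2 fold change and a log2 CPM averaged over both genotypes. The p-values and adjusted p-values in them were also made by the authors, and the adjustment covers all genes they tested. These columns were used because no value per library was analysed here. A signed fold score made by the authors was left out, since 779 values in *nf-yc triple* against Col-0 go against the log2 column.

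A call needed a change of at least 1.5-fold with an adjusted p below 0.05. Use was made of 0 columns of unmapped samples. P450 genes were matched by identifier to RefSeq genes of TAIR10.1 (90 of 90), from which positions, names and 250-base upstream windows were read, and coding sequences were compared with blastn 2.17.0. The tables were read with Python 3.11.15 and pandas 2.3.3, and the calling rule was tested on simulated data. Background shares of calls are over the 7195 described genes in any table, those that could have been taken, and those of motifs are over the genes with a full window named beside them.

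The genes named are, in each comparison, the 5 highest and 5 lowest called P450 genes, called genes on role lists or in subfamilies with at least 3 called genes, and genes called in both backgrounds or against both parents. *CYP702A5*, *CYP702A6*, *CYP704A2*, AT2G12190 and genes never called were named after their values were seen. Members and lists were chosen with earlier results of these data known. Alternatives were other fold, p and level thresholds and other member sets.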

Additional observations from a re-analysis of the deposited data

Results flagged for a closer look

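*CYP82F1* responded to loss of HY5 in opposite directions in the 2 backgrounds. It stood at -0.44 in the quadruple mutant against *nf-yc triple* and at 0.66 in *hy5* against Col-0, a difference of -1.10 on the log2 scale. Each value passed an edgeR adjusted p of 0.05 on its own (0.0381 and 0.000719), but the difference between them was not tested, since that needs values per library. It was the 1 gene of 35 listed in both comparisons whose signs differed.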

How the results depend on the processing

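Each of the 10 counts was recomputed under 7 alternatives, and 55 of the 70 values stayed within 1.5 times of the count reported. At least 2-fold left, higher and lower, 5 and 3 P450 genes in *nf-yc triple*, 13 and 5 in *hy5* and 13 and 10 in the quadruple mutant against Col-0, 12 and 7 in the quadruple mutant against *nf-yc triple*, and 1 and 0 against *hy5*. With no fold threshold, 22 were lower in *nf-yc triple* and 25 in *hy5* against Col-0, 25 were lower in the quadruple mutant against *nf-yc triple*, and 4 were higher and 14 lower against *hy5*; the other 5 counts stayed within 1.5 times. An adjusted p of 0.01, a mean log2 CPM of at least 1 and the 13 left-out genes moved no count by more than 1.5 times. The same held for 2 alternatives chosen after seeing the data, which added 2 annotated P450 genes without a short description or dropped the 16 genes with a coding sequence at least 90% identical to another. The background shares of described genes were not recomputed under any alternative.

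No paired analysis was possible because the tables hold no values per library, and for the same reason the fits without each replicate were not run. Depth per library is unknown, so what it limits cannot be stated.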
